A study of Mus musculus with 2 samples.

Results

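The NADH:ubiquinone oxidoreductase (complex I) genes of the Nduf family were examined in long-term haematopoietic stem cells (LT-HSC) of WASH knockout mice and of wild-type control mice. The members were the genes whose name on the array begins with Nduf, which gave 41 genes with 58 sequences, out of 24173 genes on an array of 44170 sequences in all. By name, 11 were Ndufs and Ndufv genes, 26 were Ndufa, Ndufb and Ndufc genes and 4 were Ndufaf genes. Each gene was represented by its brightest sequence, the sequence with the highest mean log2 intensity over both arrays, and the other sequences served as a check.

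The knockout group was LT-HSC of mice lacking WASH, an activator of actin assembly on endosomes, and the control group was LT-HSC of wild-type mice. Both were of strain C57/BL6, marrow came from femurs, and the cells were sorted by flow cytometry. The labels state neither the allele, a driver of the deletion, the age of the mice nor how many mice were pooled. Total RNA labelled with Cy3 was hybridised to a NimbleGen expression array, with 1 array for each genotype and 2 in all. There is no spread between replicates and so no error or test, and every difference below compares these arrays only.

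Complex I is the first enzyme of the respiratory chain. It takes electrons from NADH at the tip of a peripheral arm in the matrix, passes them along iron-sulphur clusters to ubiquinone, and pumps protons through a membrane arm. Its catalytic core is encoded partly in the nucleus, by Ndufv and Ndufs genes, and partly by the mt-Nd genes of the mitochondrial genome. The remaining subunits are accessory and stabilise the enzyme, while Ndufaf proteins help to assemble it and leave before it is finished. Stem cells of the marrow are known to rely less on respiration than their progeny do.

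Intensities are given on the linear scale of the deposited values, and differences as log2 of knockout over control, so that a negative difference is lower on the knockout array. The arrays matched closely in distribution, with median intensities of 137 on the knockout array and 137 on the control array, and probes of random sequence, which give the background, lay at 75.7 on the knockout array and 71.3 on the control array. A gene counted as being in the detected range if its value exceeded the median of its array on at least 1 array. Of the 41 members, 37 were in that range, 32 of them on both arrays. Ndufs5, Ndufb4, Ndufc1 and Ndufa9 were above the median on the control array only. Ndufa1, Ndufb11, Ndufaf3 and Ndufaf4 lay below the median on both arrays.

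Markers of other blood cells differed between the arrays. Over all genes in the detected range, 51.7% were higher and 48.3% lower on the knockout array. All 14 erythroid markers were brighter in the knockout, with a summed intensity of 90406 on that array and 17921 on the control array. The erythroid sums rest mainly on the globin genes Hbb-b1 (43218 on the knockout array and 5699 on the control array) and Hba-a2 (26801 and 5551). Of 14 granulocyte and monocyte markers 11 were lower, with sums of 55780 on the knockout array and 141170 on the control array. Those sums rest mainly on the bright markers S100a8, S100a9, Ngp and Ltf. The 3 that were higher in the knockout were Csf1r (1.19), Itgam (0.77) and Ly6c2 (0.62). No marker was listed at 0. Of the erythroid markers 3 (Tfrc, Klf1 and Car1) were at background on the control array, and of the granulocyte and monocyte markers 1 (Csf3r) was so on the knockout array. Of 12 LT-HSC markers, 8 were in the detected range, while Procr, Fgd5 and Tek did not exceed background on either array. The 8 in the range had a median of -0.18, and 5 of them (62.5%) had a lower value in the knockout, beside 48.3% of all genes in the range. The most negative was Mecom, a regulator of stem cell maintenance, at 163 on the knockout array and 350.1 on the control array (-1.10). Meis1 was the most positive, at 182 on the knockout array and 93.6 on the control array (0.96). Mecom has 6 sequences and Meis1 3, and only the brightest of each was read. Whether RNA of such cells takes part in the Nduf values below was not tested, and in bulk RNA fewer cells of a type and less RNA per cell cannot be told apart.

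More Nduf genes were lower than higher on the knockout array, mostly by less than 2-fold. Among the 37 detected members, 23 had a lower value in the knockout and 14 a higher one. Of all genes in that range 48.3% were lower and 51.7% higher. Their median difference was -0.23, beside 0.03 over all 16247 genes in the range. Over all 41 members, 25 were lower, against 48.3% of all genes measured, and the median was -0.16 beside 0.02 over all genes. The 32 members above the median on both arrays had a median of -0.20, with 19 lower. At a size of 2-fold, 4 members were lower (10.8%), against 7.29% of the genes in the detected range, and none was higher, against 6.41%. At 1.5-fold, 11 were lower, against 18.3%, and 4 were higher, against 18.5%.

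**Figure D1:**
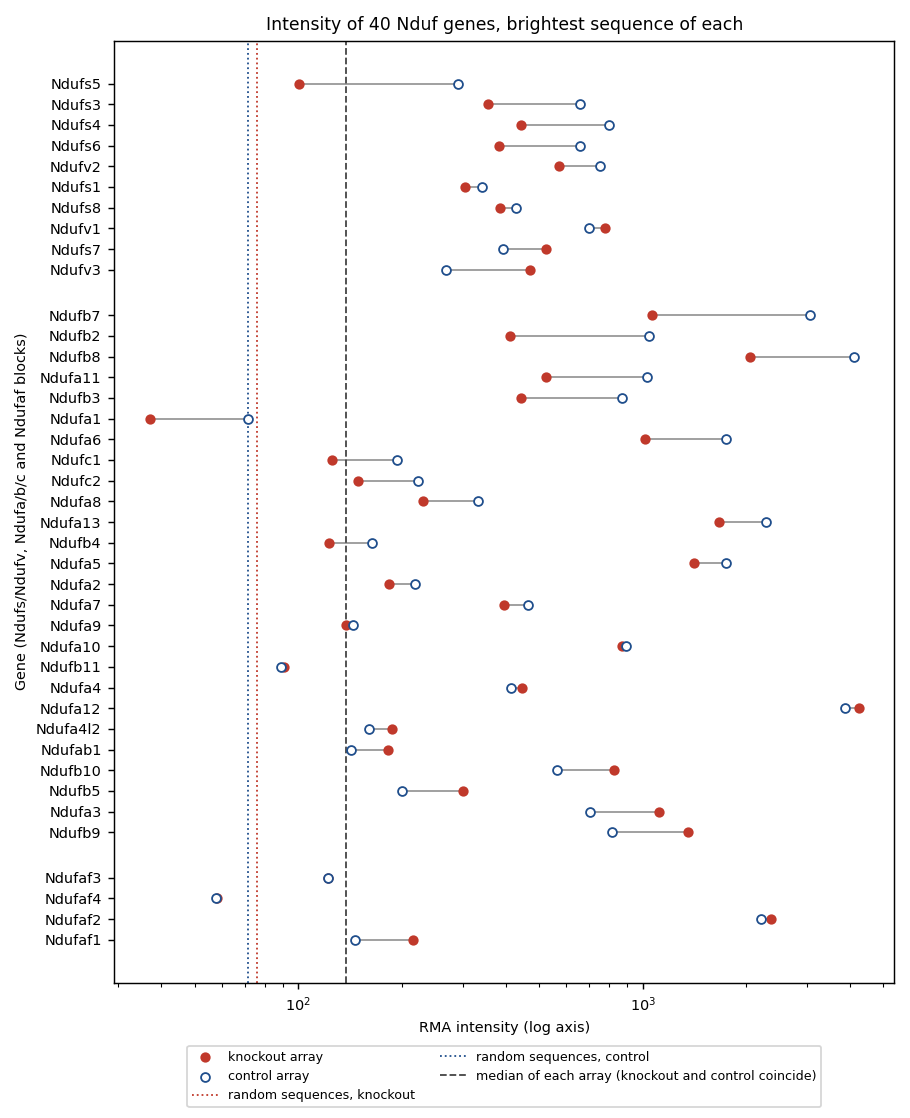
RMA intensity (log axis) of the brightest sequence of 40 Nduf genes on the knockout array (filled red) and the control array (open blue), ordered by difference within the Ndufs and Ndufv, the Ndufa, Ndufb and Ndufc, and the Ndufaf genes. Dotted lines mark the background of random probes (75.7 and 71.3) and the dashed line the array medians. The knockout values of Ndufs5, Ndufb7 and Ndufb2 lie far to the left of their control values, while Ndufv3 and Ndufb9 lie to the right.

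The catalytic core genes lay on both sides of zero. These 7 genes encode the subunits that bind the flavin, the iron-sulphur clusters and the quinone site, and all 7 were in the detected range, with a median of -0.15 and none at 2-fold. Ndufs3, a subunit of the quinone-side module, stood at 357 on the knockout array and 656 on the control array, a difference of -0.88 and the most negative of the core. Ndufv2, which carries an iron-sulphur cluster next to the flavin site, stood at 571 on the knockout array and 749 on the control array (-0.39). Both were brighter on the control array by less than 2-fold.

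The largest core subunit gene, Ndufs1, was at 305 on the knockout array and 342 on the control array (-0.16). Ndufs8, which holds iron-sulphur clusters on the way to the quinone, was at 386 on the knockout array and 429 on the control array (-0.15). These were small differences, under 1.5-fold. On the other side, Ndufv1, which binds NADH and flavin, was at 776 on the knockout array and 698 on the control array (0.15). Ndufs7, which lines the quinone-binding site, was at 523 on the knockout array and 393 on the control array (0.41). Neither of these reached 1.5-fold.

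The other Ndufs and Ndufv genes encode accessory subunits in spite of their names, and they held the extremes of this group. Ndufs5 (chromosome 4, 123389952 to 123393324, MM9), a membrane-arm subunit on the side of the intermembrane space, had 100.2 on the knockout array and 290.4 on the control array, a difference of -1.53, or 2.90-fold lower. Its knockout value was only 1.32 times background, and it has a single sequence. Ndufs4, a subunit of the peripheral arm whose loss in mice gives an encephalopathy, had 443 on the knockout array and 801 on the control array (-0.85). Ndufs6, a zinc-binding subunit of the same arm, had 384 on the knockout array and 656 on the control array (-0.77). Ndufv3 (chromosome 17, 31657102 to 31668270) went the other way, with 472 on the knockout array and 268 on the control array (0.82), the highest difference of all members in the detected range. The 11 Ndufs and Ndufv genes include the accessory subunits of that name. Of them 7 were lower (63.6%), beside 48.3% of all genes in the detected range, and 4 were higher. Their median was -0.16. This median had the opposite sign, 0.20, when each gene was read by its dimmest sequence (8 genes in the range). With that reading Ndufs1, Ndufs8 and Ndufv2 were no longer in the range, and Ndufs6 was at 0.24.

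Among the accessory Ndufa, Ndufb and Ndufc genes, 24 of 26 were in the detected range, with a median of -0.28. Of the 24, 16 were lower (66.7%), beside 48.3% of all genes in the range, and 8 were higher. The 3 members at 2-fold (12.5%, against 7.29% of all genes in the range) were all Ndufb genes, whose products lie in the membrane arm. Ndufb7 (chromosome 8, 86090677 to 86095524) had 1061 on the knockout array and 3066 on the control array, a difference of -1.53, or 2.89-fold lower. It was well above background, at 14.0 times that level on the knockout array and 43.0 times on the control array, and has 1 sequence. Ndufb8 (chromosome 19, 44624740 to 44629905) had 2043 on the knockout array and 4114 on the control array (-1.01, or 2.01-fold lower), just past the 2-fold size, which it did not reach after quantile normalization (-0.955), loess (-0.950) or an offset before the log (-0.992). Ndufb2 (chromosome 6, 39542581 to 39549470) had 412 on the knockout array and 1043 on the control array (-1.34), but its other sequence differed the opposite way.

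Just short of 2-fold were Ndufb3, at 444 on the knockout array and 872 on the control array (-0.97), and Ndufa11, at 525 on the knockout array and 1031 on the control array (-0.97), both membrane-arm subunits. Ndufa6, a peripheral-arm subunit of the LYR family that holds the acyl carrier protein, had 1014 on the knockout array and 1742 on the control array (-0.78). Ndufc1 had 125.4 on the knockout array and 193 on the control array (-0.62). These 4 genes were lower by between 1.54-fold and 1.96-fold.

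Higher on the knockout array were Ndufb9, Ndufa3 and Ndufb5, at between 1.5-fold and 2-fold. Ndufb9 (chromosome 15, 58765382 to 58771042), the other LYR subunit, had 1354 on the knockout array and 816 on the control array (0.73). Ndufa3 had 1117 on the knockout array and 702 on the control array (0.67), and Ndufb5 had 301 on the knockout array and 200.2 on the control array (0.59). The pair of LYR subunits thus differed in opposite directions. The acyl carrier protein gene Ndufab1, whose product both bind, had 182 on the knockout array and 142 on the control array (0.36).

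The remaining accessory genes in the detected range lay between -0.58 (Ndufc2) and 0.55 (Ndufb10). Ndufa13, also known as GRIM-19 for its part in cell death, had 1661 on the knockout array and 2282 on the control array (-0.46). Ndufa10 and Ndufa12 were near zero, at -0.04 and 0.14. Ndufa4, whose product is now counted with cytochrome c oxidase, differed by 0.11, and its paralogue Ndufa4l2 by 0.22. Ndufa1 did not exceed background on either array (37.0 on the knockout array and 71.3 on the control array), so its difference of -0.94 has no measured size. Ndufb11 was at 91.1 on the knockout array and 89.4 on the control array, both below the array medians.

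The assembly factor genes showed no lower member in the detected range, but only 2 of 4 were there. Ndufaf2, a paralogue of Ndufa12 that holds its place during assembly, was at 2366 on the knockout array and 2205 on the control array (0.10). Ndufaf1, a factor for the membrane arm, was at 215 on the knockout array and 146 on the control array (0.56). Their median was 0.33. Ndufaf3 stood at 121.9 on the knockout array and 122.1 on the control array (-0.002), and Ndufaf4, at 58.0 on the knockout array and 57.7 on the control array, did not exceed background on either array.

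**Figure D2:**
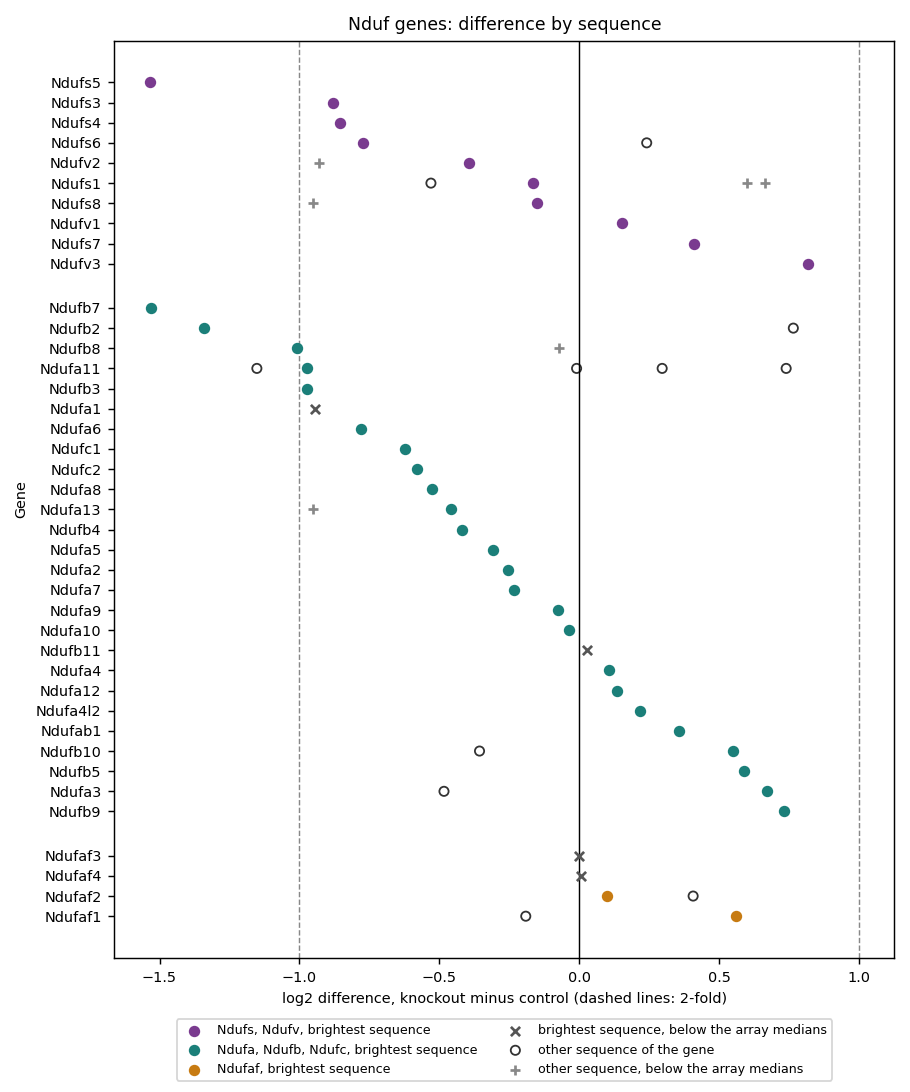
Log2 difference (knockout minus control) of the sequences of 40 Nduf genes. Filled points are brightest sequences in the detected range, coloured by name group, crosses are brightest sequences below the array medians, open circles are other sequences, plus signs are other sequences below the array medians, and dashed lines mark 2-fold. Brightest sequences reach from -1.53 (Ndufs5) to 0.82 (Ndufv3), and the open circles of Ndufb2, Ndufs6, Ndufa3 and Ndufb10 lie across zero from the filled points.

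Sorted by place in the enzyme, genes of the membrane arm had the more negative median, although the ranges of the arms overlapped. Of 16 membrane-arm genes in the detected range, 12 were lower, beside 48.3% of all genes there, and 4 of them by at least 2-fold, beside 7.29% of all genes. The membrane-arm median was -0.55. Of the 16 peripheral-arm genes, 11 were lower and none reached 2-fold, with a median of -0.20. Ndufs5, Ndufb4 and Ndufc1 of the membrane arm were in the range through the control array alone. Among genes above the median on both arrays, 9 of 13 were lower in the membrane arm (69.2%), 3 of them by at least 2-fold, and 10 of 14 in the peripheral arm (71.4%). Their medians were -0.53 in the membrane arm and -0.24 in the peripheral arm. The difference between the arms was not tested. Among the 4 membrane-arm subunits that carry paired CX9C motifs, which are imported into the intermembrane space and oxidised there, Ndufs5 and Ndufb7 were the 2 most negative members. Ndufa8 was at 230.4 on the knockout array and 332 on the control array (-0.53). Ndufb10 was higher, at 825 on the knockout array and 564 on the control array (0.55).

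The other sequences of the same genes did not bear the directions out in most cases. Of the members, 12 had several sequences and 29 had 1. In the detected range there were 11 other sequences of 8 genes: 4 differed in the same direction as the brightest sequence and 7 in the opposite direction. Their median was -0.01. Over all genes, only the brightest and second brightest sequences were paired. With both in the detected range (4950 genes), 55.4% of pairs had the same direction. By that pair alone, Ndufa11, Ndufaf2 and Ndufs1 kept the direction, while Ndufa3, Ndufaf1, Ndufb10, Ndufb2 and Ndufs6 did not. The spread of a single sequence, taken from the difference between the pair over all genes, was 0.63 (log2 SD). Of the 37 members in that range, 10 were lower by more than this spread, beside 16.6% of all genes in the range, and 3 were higher by more than it, beside 16.4%.

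The widest gap was in Ndufb2, where the other sequence had 201.2 on the knockout array and 118 on the control array (0.77 against -1.34). The second sequence of Ndufs6 had 193 on the knockout array and 163 on the control array (0.24 against -0.77). Ndufa3 was lower with its other sequence (-0.48 against 0.67), as were Ndufb10 (-0.36 against 0.55) and Ndufaf1 (-0.19 against 0.56). The second sequence of Ndufaf2 was higher, as its brightest was (0.41 against 0.10). Ndufa11 had 5 sequences, all in the detected range. The brightest pair differed by -0.97 and -1.15, a further sequence by -0.01, and the remaining pair by 0.30 and 0.74. The other sequence of Ndufs1 in the range was lower, at -0.53 against -0.16, while its remaining pair, below the array medians, was higher, at 0.60 and 0.67. The sequence at 0.67 did not exceed background on either array (35.9 on the knockout array and 22.6 on the control array), so that difference has no measured size. Ndufa13, Ndufb8, Ndufs8 and Ndufv2 had a second sequence only below the array medians, and all 4 of these had lower values in the knockout. Those of Ndufs8 (55.8) and Ndufv2 (56.6) did not exceed background on the knockout array. Those of Ndufa13 and Ndufb8 did not exceed it on either array, so their differences have no measured size. The 2-fold size of Ndufb8 therefore rests on its brightest sequence alone.

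**Figure D3:**
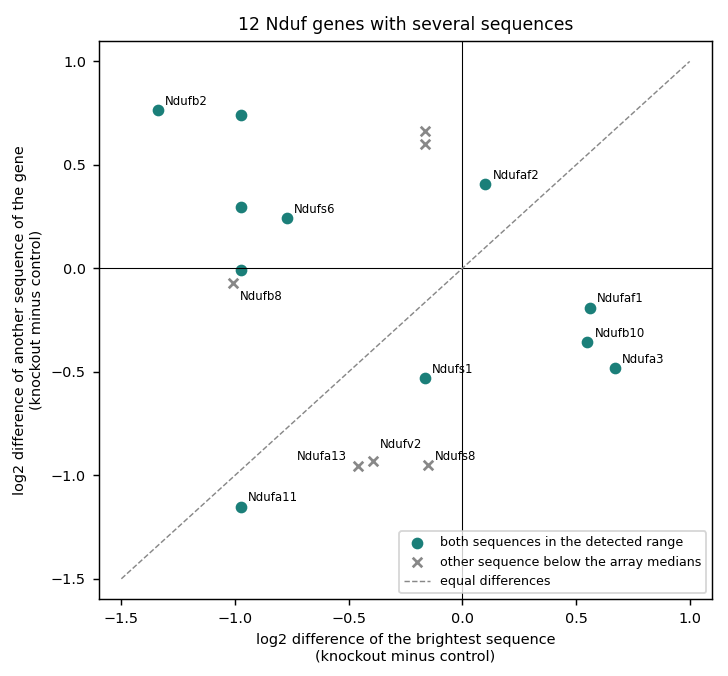
Log2 difference of another sequence (vertical axis) against that of the brightest sequence (horizontal axis) for the 12 Nduf genes with several sequences, each gene labelled once, with the dashed line marking equal differences. Points in the upper left and lower right, such as Ndufb2 (-1.34 and 0.77), are sequences of a gene that differ in opposite directions.

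Copies of Nduf genes elsewhere in the genome were also on the array under other names. The closest call concerned Ndufs5: the transcribed pseudogene Ndufs5-ps on chromosome 16 had 48.8 on the knockout array, which is not above background, and 258 on the control array, so that it was at least 3.41-fold lower. Whether the probes of Ndufs5 and of its pseudogene read the same RNA was not tested. Ndufs6b, a pseudogene of Ndufs6, had 656 on the knockout array and 757 on the control array (-0.21). The transcribed pseudogene Ndufa11b had 220 on the knockout array and 164 on the control array (0.42). Ndufb4c, a coding copy of Ndufb4, differed by -0.59, beside -0.42 for Ndufb4 itself. Values of Ndufs5, Ndufs6, Ndufa11 and Ndufb4 are uncertain to the extent that probes can read these copies.

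Of 49 protein-coding genes that the RefSeq table now names Nduf, 41 carried the name in the files, 6 stood there under older names, and Ndufb4b and Ndufb6 were not matched and are not analysed here. The older names held 4 further assembly factors. Ndufaf6 was at 127.6 on the knockout array and 199 on the control array (-0.64). Ndufaf7 and Ndufaf8 differed by 0.12 and 0.12, and Ndufaf5, below the array medians, by -0.15. Ndufb1 did not exceed background on either array.

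Complex I genes without the Nduf name lay on both sides of zero. Of 13 measured, 9 were in the detected range, with a median of -0.20. Of the 9, 6 were lower (66.7%), beside 48.3% of all genes in the range, and 3 were higher. Transcripts of the mitochondrial genome were read by a sequence described in the files as NADH dehydrogenase 1, at 41328 on the knockout array and 47348 on the control array (-0.20), and by another described as NADH dehydrogenase 4, at 44135 on the knockout array and 49449 on the control array (-0.16). The assembly gene Nubpl, which serves delivery of iron-sulphur clusters to complex I, did not exceed background on the knockout array (46.0) and had 176 on the control array, at least 2.32-fold lower. Foxred1, another assembly factor, was at 278 on the knockout array and 199 on the control array (0.48), and Dmac2 was at 346 on the knockout array and 463 on the control array (-0.42).

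Genes of respiratory complexes II to V were also lower more often than higher. Of 40 measured genes 36 lay in the detected range. Of the 36, 25 were lower (69.4%), beside 48.3% of all genes in the range, and 11 were higher. Their median was -0.31, beside -0.23 for the Nduf genes and 0.03 for all genes. At 2-fold, 6 were lower (16.7%), against 7.29% of all genes in the range, and 1 was higher (2.78%), against 6.41%. Cox7b, a subunit of cytochrome c oxidase, had 489 on the knockout array and 185 on the control array (1.40). Sdhb, the iron-sulphur subunit of succinate dehydrogenase, did not exceed background on the knockout array (69.3) and had 156 on the control array, at least 2.06-fold lower. Atp5k, a subunit of the ATP synthase, had 305 on the knockout array and 681 on the control array (-1.16). No difference between complex I and the other complexes was tested.

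**Figure D4:**
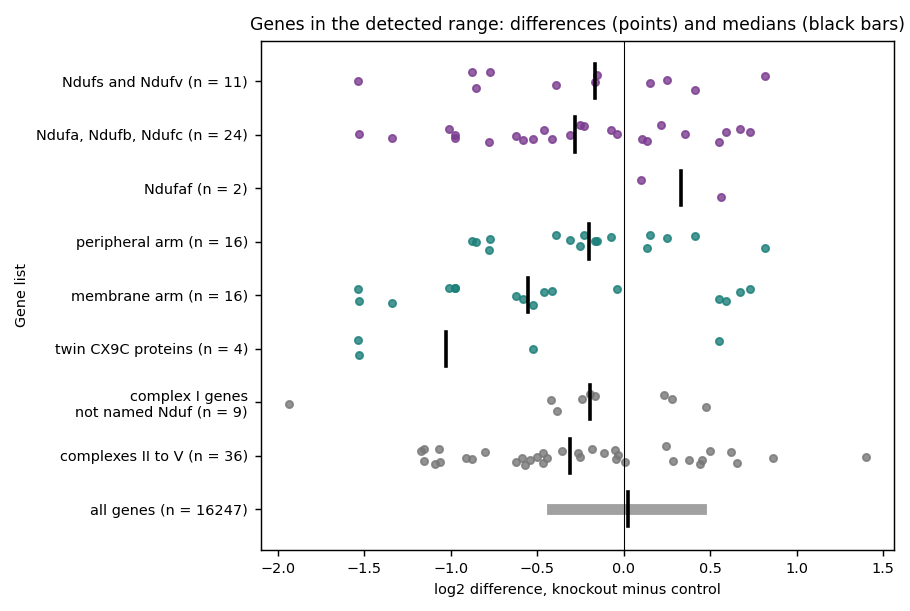
Log2 differences (knockout minus control) of genes in the detected range, with 1 point for each gene and a black bar at the list's median; points are spread vertically for legibility and the grey bar spans percentiles 25 to 75 of all 16247 genes. Medians lie at -0.16 for Ndufs and Ndufv, -0.28 for Ndufa, Ndufb and Ndufc, 0.33 for Ndufaf, -0.20 and -0.55 for the peripheral and membrane arms, and 0.03 for all genes.

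Promoters were examined because nuclear genes of the respiratory chain are known to share binding motifs for the transcription factors NRF1, GABP (an ETS factor) and YY1. Promoter windows ran from 250 bases before to 50 bases after each gene's start in RefSeq (GRCm38.p6), and 36 of the 41 members matched, with 38 windows. Motifs were searched on both strands. They were GCGCA and GCGC with any 1 base between them for NRF1, CCGGAAG for ETS factors and ATGGCGG for YY1. Matches, which may overlap, are marked in capitals. Shown are the 4 most negative members with an NRF1 match, and Ndufb7, which had an ETS match and no NRF1 match.
Ndufs5, chr4:123718137-123718436, minus strand: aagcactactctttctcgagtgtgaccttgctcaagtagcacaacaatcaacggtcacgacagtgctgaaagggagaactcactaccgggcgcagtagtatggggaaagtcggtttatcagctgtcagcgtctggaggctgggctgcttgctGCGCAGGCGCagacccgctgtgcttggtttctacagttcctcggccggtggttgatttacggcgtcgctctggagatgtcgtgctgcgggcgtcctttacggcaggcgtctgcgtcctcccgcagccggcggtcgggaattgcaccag
Ndufa11, chr17:56717512-56717811, plus strand: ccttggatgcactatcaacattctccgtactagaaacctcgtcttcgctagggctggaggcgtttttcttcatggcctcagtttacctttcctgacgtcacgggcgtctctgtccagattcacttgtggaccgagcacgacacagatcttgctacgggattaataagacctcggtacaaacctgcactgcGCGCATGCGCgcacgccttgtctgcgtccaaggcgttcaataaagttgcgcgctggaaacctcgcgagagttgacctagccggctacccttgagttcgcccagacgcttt
Ndufa6, chr15:82354242-82354541, minus strand: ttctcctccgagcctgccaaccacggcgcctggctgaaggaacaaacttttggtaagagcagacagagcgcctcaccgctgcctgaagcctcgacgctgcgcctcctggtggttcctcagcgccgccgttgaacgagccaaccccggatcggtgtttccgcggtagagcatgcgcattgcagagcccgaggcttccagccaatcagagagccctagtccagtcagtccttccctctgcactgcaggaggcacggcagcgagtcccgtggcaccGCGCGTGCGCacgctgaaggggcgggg
Ndufs6, chr13:73328433-73328732, minus strand: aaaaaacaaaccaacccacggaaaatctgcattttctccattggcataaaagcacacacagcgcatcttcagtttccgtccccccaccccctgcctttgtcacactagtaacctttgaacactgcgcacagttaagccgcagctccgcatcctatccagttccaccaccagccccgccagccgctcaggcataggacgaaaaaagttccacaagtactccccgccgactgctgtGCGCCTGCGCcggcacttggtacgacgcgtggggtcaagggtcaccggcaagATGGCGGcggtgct
Ndufb7, chr8:83566508-83566807, plus strand: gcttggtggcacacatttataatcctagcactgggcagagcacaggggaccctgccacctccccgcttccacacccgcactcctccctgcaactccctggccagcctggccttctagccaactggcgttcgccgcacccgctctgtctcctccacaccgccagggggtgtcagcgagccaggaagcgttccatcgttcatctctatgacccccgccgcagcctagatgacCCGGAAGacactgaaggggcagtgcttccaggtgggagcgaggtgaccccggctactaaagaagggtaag

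An NRF1 match stood in 9 of 38 member windows (23.7%), beside 4.60% of all 32851 promoter windows. ETS matches stood in 4 member windows (10.5%), beside 8.86% of all, and YY1 matches in 9 (23.7%), beside 4.05% of all. The NRF1 matches belonged to 8 genes: Ndufs5, Ndufa11, Ndufa6, Ndufs6, Ndufa8, Ndufb4, Ndufa5 and Ndufaf4. In Ndufs5 the match began 98 bases before the start, in Ndufa11 60 bases before it, and in Ndufs6 16 bases before it, with a YY1 match downstream. Ndufb4 had 3 NRF1 matches. Ndufb2 (-1.34), Ndufb8 (-1.01) and Ndufb3 (-0.97), also among the most negative members, had no match to any of the 3 motifs.

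The 7 NRF1-matched genes in the detected range were all lower on the knockout array, between -1.53 and -0.31, with a median of -0.77. Among the 25 without a match, 14 were lower and the median was -0.08, and the ranges of the groups overlapped. Ndufs5 and Ndufb4 were in the detected range on the control array only, and the other sequences of Ndufs6 and Ndufa11 include higher ones. Over all genes in the detected range with a window, the median was -0.07 for 955 genes with an NRF1 match and 0.03 for 10256 without, with 54.3% and 47.9% lower. For ETS the members' medians were -0.52 with a match (4 genes) and -0.35 without, and for YY1 -0.23 with a match (7 genes) and -0.42 without. A match is a run of letters and not a measured binding site. The motifs were chosen with the expression values known, and no difference by motif was tested.

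**Figure D5:**
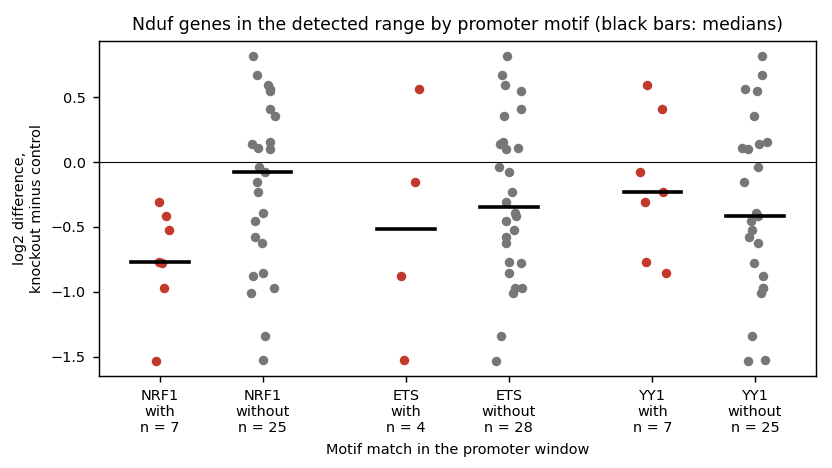
Log2 difference (knockout minus control) of Nduf genes in the detected range, with (red) and without (grey) a match to each of 3 motifs in the promoter window; black bars are medians and points are spread sideways for legibility. The 7 genes with an NRF1 match lie between -1.53 and -0.31, and all but Ndufs5, the most negative of all, lie within the range of the 25 genes without it.

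Genes of the factors that read such promoters were measured too. Nrf1 was at 945 on the knockout array and 642 on the control array (0.56). Gabpa, which encodes the DNA-binding subunit of GABP, was at 1284 on the knockout array and 2043 on the control array (-0.67). Pprc1, a coactivator of NRF1 targets, was at 1209 on the knockout array and 924 on the control array (0.39). Nrf1 has 6 sequences, Pprc1 4 and Gabpa 3, and only the brightest of each was read. Nrf1 and Pprc1 differed by less than the spread of a sequence (0.63), and Gabpa by slightly more. Of the 8 regulators listed 7 were measured and 5 were in the detected range, 3 lower and 2 higher, with a median of -0.005.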

How the data were processed

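Expression was measured on 1 array for the knockout and 1 for the control. The authors deposited a linear intensity per sequence; per the submitters' processing notes it came from RMA (background correction, normalization between arrays, summary of probes), with the version not stated. RMA draws array distributions together, so a shift of most genes would not be visible. Per the file headers, 44155 of 44170 sequences had 3 probes, and coordinates are on MM9. Intensities were taken as log2 with no further scaling. The series table held 34218 of these sequences, equal within 0.0412 intensity units, and served as an alternative. Gene symbols were updated by gene identifier through RefSeq; the rule for members used the files' own names. The brightest sequence stood for a gene, and fixed sizes of 1.5-fold, 2-fold and 3-fold took the place of a test. For a gene not above background (5000 probes of random sequence) on 1 array, that level gives a bound. Named were members at 1.5-fold, core genes, members with several sequences or outside the detected range, and up to 3 genes of other lists; further genes were named after their values were seen. Members and lists were chosen with earlier results of these data known. A member is left out of the named values and is not reported here, though it is in the counts and medians. The number of arrays limits the precision. Only the step that picks the brightest sequence and takes its difference was tested on simulated data. There, all sequences of a gene shared the planted difference, and the noise was smaller than the spread of a sequence here. Python 3.11.15, pandas 2.3.3, NumPy 2.4.6 and statsmodels 0.14.6 were used.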

Additional observations from a re-analysis of the deposited data

Results flagged for a closer look

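Besides the sequences for NADH dehydrogenase 1 and 4, which entered the gene comparisons, 5 sequences of the mitochondrial genome have no gene symbol and entered none. They were set apart for a closer look for that reason. All 5 were brighter in the knockout, while 51.7% of all genes in the detected range were higher there. They had 20820 on the knockout array and 17944 on the control array for the sequence described as cytochrome oxidase subunit 3. They had 27864 on the knockout array and 25691 on the control array for the polypeptide of subunit II, and 40207 on the knockout array and 32512 on the control array for a sequence described as subunit I. An unclassified sequence near the start of that genome had 55598 on the knockout array and 44617 on the control array. A possibly chimeric clone had 238 on the knockout array and 198 on the control array. These names follow the sequence descriptions and were not checked against gene positions. The sequence described as subunit I lies at 12405 to 15288, that of subunit 3 at 7765 to 8607 and the chimeric clone at 3848 to 4933. Whether any of the 5 covers a complex I gene is therefore not settled. The differences were 0.12 to 0.32, while those of the sequences for NADH dehydrogenase 1 and 4 were -0.20 and -0.16. No difference was tested.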

How the results depend on the processing

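No paired analysis was possible because there is only 1 array per genotype. The median of the Nduf genes stayed between -0.27 and -0.13 under 14 alternatives, of which the filter on the mean of both arrays and the addition of genes since named Nduf were chosen after seeing the data. The count of members at least 2-fold lower (4) was 3 after quantile normalization, loess or an offset and with the 75th percentile filter, 2 with all sequences averaged and 2 with the dimmest sequence. At 1.5-fold it was 11 lower and 4 higher, and at 3-fold 0 lower. The Ndufs and Ndufv median (-0.16) turned to 0.20 with the dimmest sequence (0.197) and was -0.28 with the series table and -0.41 with the mean of sequences. The accessory median (-0.28) was -0.38 with the 75th percentile filter, -0.42 with second sequences only (4 genes) and -0.44 with the accessory Ndufs and Ndufv genes moved in and Ndufa4 and Ndufa4l2 out. The assembly median (0.33) was 0.22 with the mean of sequences, 0.11 with the dimmest, 0.054 with dim genes kept, 0.10 with the 75th percentile filter (1 gene), 0.11 with second sequences and 0.12 with genes since named Nduf. The median of complexes II to V (-0.31) was -0.16 with the mean of sequences, -0.18 with the dimmest and -0.45 with the 75th percentile filter; that of the other complex I genes (-0.20) was -0.081 after loess. Ndufb2 turned to 0.77 with the dimmest sequence. Of 289 values of named genes under alternatives, 278 moved by less than the spread of a sequence (0.63). Many of these could not move. The filters and the series table left the values as they were, and the mean and the dimmest sequence cannot alter a gene with 1 sequence. The 10 values that moved further, and the dimmest-sequence value of Ndufb2, all came with the mean of sequences or the dimmest sequence. With the dimmest sequence the sign also changed for Ndufa11 (0.74), Ndufs6 (0.24) and Ndufs1 (0.67). The same held for Ndufa3 (-0.48), Ndufb10 (-0.36) and Ndufaf1 (-0.19). With the mean of sequences Ndufs1 changed sign as well (0.14), by less than the spread. The cause of these changes was not tested. For dim genes, signal close to background limits the precision.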
